A study of Homo sapiens with 18 samples.

Results

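Long intergenic non-coding RNAs (lincRNAs) of HEK293 cells were described here across their rates, their localisation, their course in newly made RNA and their level in total RNA. The members were genes that the authors' rate table of 15120 genes calls lincRNA. Their mean mature level over the 15 libraries of labelled RNA was at least 5 TPM, a length-corrected measure of abundance. Mature here means spliced RNA, or all RNA of a gene without introns. Of the 768 lincRNA genes of that table, 277 reached 5 TPM. The 7 of them that belong to the SNHG genes or are MALAT1, NEAT1 or NORAD were left out, which gave 270 members. The members were thus selected on their labelled levels, which are given as a description. Mean levels just inside the minimum were 5.003 TPM for ZNF132-DT, 5.02 TPM for ENSG00000238261 and 5.07 TPM for AC092127.1, and just outside it 4.98 TPM for TRAM2-AS1, 4.98 TPM for AC006058.1 and 4.95 TPM for ENSG00000270932.

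HEK293 is a human embryonic kidney cell line. Cells of all labelled groups were given 500 µM 4-thiouridine, a uridine analogue that enters RNA made after its addition and lets that RNA be purified, and 3 libraries each came from RNA labelled for 7.5, 15, 30, 45 and 60 min. Another 3 libraries came from total RNA, 1 each after oligo-dT selection of poly(A) RNA, after removal of ribosomal RNA with RNase H, and after removal with Ribo-Zero, so the spread of the total group also holds the method. All 18 libraries are of this 1 line without any other treatment named in the labels. No label ties replicates to separate cultures, and p-values therefore reflect library to library spread alone, which may be technical. TPM carry no read depth, so the depth is unknown. Of the markers of this line, LIN28B averaged 47.7 TPM, INA 14.0 TPM, PAX2 5.64 TPM and NEFM 0.459 TPM over the labelled libraries, and of 13 markers of other cell types CD3E and HBB were listed at 0 in every library and HBA1 was the highest (4.35 TPM).

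LincRNAs are transcribed mostly by RNA polymerase II from loci between coding genes. They resemble messenger RNAs in capping and polyadenylation, but many are inefficiently spliced, stay in the nucleus and are removed there by the nuclear exosome and its adaptor complexes. A number of them start from the same promoter region as a coding gene and run the other way (divergent transcripts), some give rise to microRNAs or small nucleolar RNAs, and a few, such as XIST, act on chromatin.

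The label held only in part. GENCODE release 29, a later annotation than the authors', still called 167 of the 270 members lincRNA, had no entry for 64, called 8 of them protein coding (NCBP2AS2, SMIM26, ZNF718, MTLN, AC093323.1, ZNF892, ZFTA and KANTR) and 15 transcribed pseudogenes. By release 29 type or by symbol, 8 members were structural RNAs or copies of them, and these may overlap the 167. They include RMRP, the RNA of the RNase MRP ribonucleoprotein, TERC, the template RNA of telomerase, and BCYRN1, a small cytoplasmic RNA related to Alu elements. The U3 small nucleolar RNAs SNORD3A, SNORD3B-1 and SNORD3B-2, which guide early ribosomal RNA processing, also belong here. The last are the 7SK and 7SL related RN7SKP176 and RN7SL832P. The remaining groups were 32 divergent transcripts, 36 further genes known by LINC symbols, 6 microRNA host genes, the 3 genes XIST, JPX and FTX of the X inactivation centre, and 98 others. LINC00863 is counted with the divergent transcripts and LINC01347 with the pseudogenes. AC007952.4 and AL356488.2, which share sequence with structural RNAs, are counted with the 98 others. Of the members 169 had 1 exon and 101 several.

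Several members share sequence, which limits how far reads can be assigned to them. The shortest transcripts of the 3 U3 genes, each 217 bases long on chromosome 17 of GRCh38, differ at 1 position. They are shown because the levels of these genes are among the highest of all members. The position that differs is in capitals.

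SNORD3A (chr17:19188016-19188232, + strand): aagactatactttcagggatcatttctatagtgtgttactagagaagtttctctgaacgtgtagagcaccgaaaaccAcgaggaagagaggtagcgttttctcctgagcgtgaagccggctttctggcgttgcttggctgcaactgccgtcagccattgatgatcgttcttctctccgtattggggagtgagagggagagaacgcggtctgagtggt
SNORD3B-1 (chr17:19061912-19062128, + strand): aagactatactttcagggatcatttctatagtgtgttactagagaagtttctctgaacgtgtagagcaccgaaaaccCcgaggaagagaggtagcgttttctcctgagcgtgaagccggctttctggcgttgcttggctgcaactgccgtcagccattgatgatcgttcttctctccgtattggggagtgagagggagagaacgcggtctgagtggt
SNORD3B-2 (chr17:19063920-19064136, − strand): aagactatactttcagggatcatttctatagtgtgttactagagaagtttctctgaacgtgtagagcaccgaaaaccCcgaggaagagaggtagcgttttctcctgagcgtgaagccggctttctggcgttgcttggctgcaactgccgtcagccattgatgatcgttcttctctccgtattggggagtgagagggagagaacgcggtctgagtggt

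A further member, AC007952.4, held a stretch in its 637-base transcript with 214 bases identical to the SNORD3A copy. AL356488.2 shared 98.1% of its stretches of 50 bases with transcripts of other genes, most with SCARNA2, a small Cajal body RNA. Of the 206 members with a transcript in release 29, 25 shared at least 50% of such stretches with another gene and 88 shared none. In the deposited values, 5 pairs of members had the same mature value in all 18 libraries, among them KANTR and ENSG00000268406. Values of these genes are uncertain, and the pairs count as separate members below.

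A part of TERC is shown because this RNA had one of the lowest degradation scores of all members. In TERC (chr3:169764520-169765060 of GRCh38, − strand, 541 bases) bases 21 to 80 are given, and capitals mark bases 46 to 56, the template for telomere repeats.

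TERC: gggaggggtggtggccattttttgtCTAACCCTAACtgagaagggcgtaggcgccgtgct

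Promoters of 4 members that moved with labelling time follow from RefSeq (GRCh38.p14), 250 bases before to 50 after the gene's start. EIF3J-DT and LINC01089 rose and LINC02226 and MIR181A1HG fell. MIR181A1HG was chosen after its values were seen. Capitals mark the GC box GGGCGG, the CCAAT box and the TATA box TATAAA on either strand. RefSeq held such a window for 86 of the members by symbol.

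EIF3J-DT (chr15:44536874-44537173, − strand): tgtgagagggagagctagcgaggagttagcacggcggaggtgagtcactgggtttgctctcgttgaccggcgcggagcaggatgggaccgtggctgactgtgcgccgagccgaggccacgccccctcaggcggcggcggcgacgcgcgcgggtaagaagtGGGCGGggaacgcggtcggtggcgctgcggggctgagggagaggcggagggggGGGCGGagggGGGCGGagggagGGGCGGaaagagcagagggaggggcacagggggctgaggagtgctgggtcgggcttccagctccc
LINC01089 (chr12:121802897-121803196, − strand): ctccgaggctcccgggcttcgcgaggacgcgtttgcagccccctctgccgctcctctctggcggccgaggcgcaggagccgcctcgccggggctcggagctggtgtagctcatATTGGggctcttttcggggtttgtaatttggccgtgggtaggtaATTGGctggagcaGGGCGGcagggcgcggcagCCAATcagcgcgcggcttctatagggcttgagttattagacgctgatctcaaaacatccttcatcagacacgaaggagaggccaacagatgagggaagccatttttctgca
LINC02226 (chr5:8457515-8457814, − strand): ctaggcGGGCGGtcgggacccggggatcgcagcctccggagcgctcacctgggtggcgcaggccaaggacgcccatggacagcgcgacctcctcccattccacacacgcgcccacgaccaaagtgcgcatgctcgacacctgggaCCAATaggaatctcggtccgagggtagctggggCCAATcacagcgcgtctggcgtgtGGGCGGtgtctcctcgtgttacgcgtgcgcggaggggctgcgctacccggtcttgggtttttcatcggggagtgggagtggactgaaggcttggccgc
MIR181A1HG (chr1:198937380-198937679, − strand): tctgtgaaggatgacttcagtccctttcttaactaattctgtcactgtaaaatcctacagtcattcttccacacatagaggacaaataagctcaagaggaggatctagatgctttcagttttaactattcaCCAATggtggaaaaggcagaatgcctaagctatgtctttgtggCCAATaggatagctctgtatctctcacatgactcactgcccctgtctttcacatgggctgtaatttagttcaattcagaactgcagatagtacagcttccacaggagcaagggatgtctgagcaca

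The 4 windows differ in composition. EIF3J-DT holds 4 GC boxes and 31 CpG, LINC01089 holds 1 GC box, 3 CCAAT boxes and 24 CpG, LINC02226 holds 2 GC boxes, 2 CCAAT boxes and 31 CpG, and MIR181A1HG holds 2 CCAAT boxes and 0 CpG. Over the 86 members the GC box was present in 54.7% of windows, the CCAAT box in 47.7% and TATAAA in 14.0%, beside 44.6%, 35.7% and 11.95% of the 27305 windows of all genes. A match is a description of letters and not a bound site.

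The most abundant members over the labelled libraries were RMRP, XIST and the U3 genes. RMRP had 5678, 6563 and 7184 TPM at 60 min, against 3434, 3949 and 2329 TPM at 7.5 min, and the groups did not overlap. XIST, the RNA that coats the inactive X chromosome, had 1528, 4506 and 4166 TPM at 60 min, against 1757, 3100 and 2466 TPM at 7.5 min. Replicate 1 was the lowest for XIST at each labelling time, and the 60 and 7.5 min groups overlapped. The summed TPM of SNORD3A, SNORD3B-1, SNORD3B-2 and AC007952.4 was 1615 ± 143 at 60 min, against 2242 ± 1251 at 7.5 min (mean ± SD of 3 libraries each), with most of the spread in replicate 1 at 7.5 min (3614 TPM). The other members of the 10 highest were LINC02987, AC138035.1, AL356488.2 and LINC02226, which averaged 130, 122, 137 and 53.6 TPM at 60 min. All 270 members together held 1.81% ± 0.334 of the mature TPM at 60 min, against 1.76% ± 0.136 at 7.5 min (mean ± SD of 3 libraries each). Without XIST and the 8 structural RNAs the share was 0.553% ± 0.0657 at 60 min, against 0.759% ± 0.0238 at 7.5 min (mean ± SD of 3 libraries each).

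**Figure D1:**
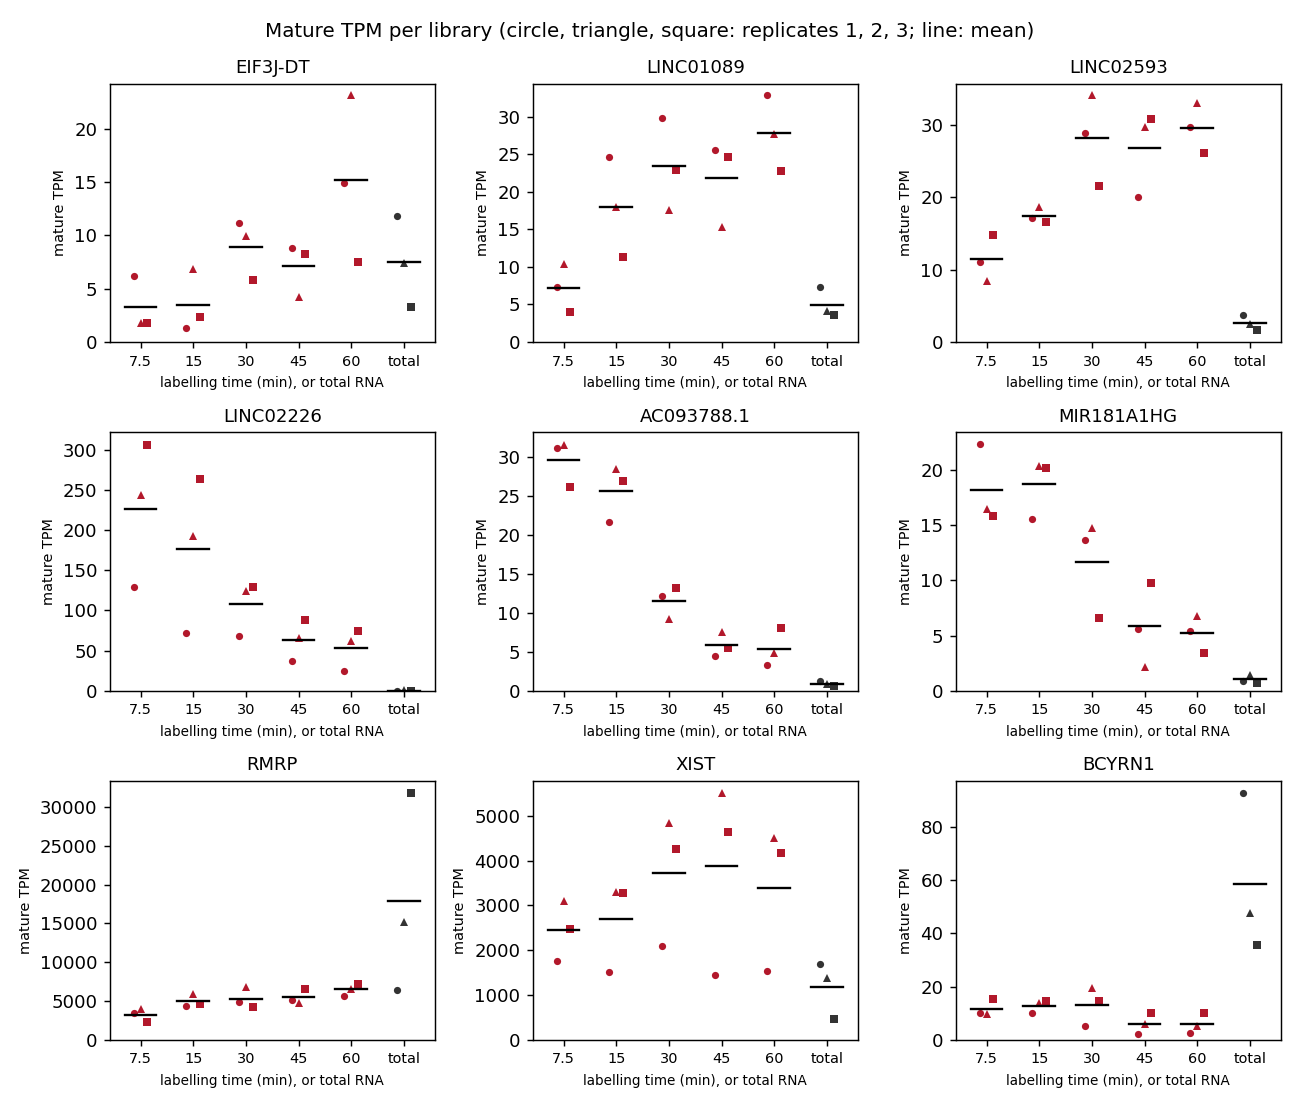
Mature TPM in each library (y axis, linear from 0) for 9 members against labelling time in min and in total RNA (x axis), with symbols for replicates and lines for means. EIF3J-DT, LINC01089 and LINC02593 rise with labelling time, LINC02226, AC093788.1 and MIR181A1HG fall, and BCYRN1 is highest in total RNA, with 35.5 to 92.8 TPM.

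The comparison of RNA labelled for 60 and for 7.5 min asked which lincRNAs gain or lose weight as labelled RNA ages from minutes to an hour. In it 13 members rose and 23 fell (limma, adjusted p under 0.05), 4.81% and 8.52% of the 270, while 15.8% of all 16739 genes tested rose and 4.21% fell. The median member changed by -0.18 on the log2 scale, beside 0.24 over all genes tested, 0.37 over 10236 protein-coding genes of the same minimum level and -0.12 over 229 antisense RNAs. Mature TPM holds all RNA of the 169 members with 1 exon, while 9947 of the 10236 protein-coding genes have several exons. These medians therefore compare unlike measures in part. A log2 change here is of TPM + 1 and understates the change of low genes. All 36 members called had groups that did not overlap. No such share over all called genes is given here, so this adds no support to the calls. Of the 36 members 24 had 1 exon, 7 that rose and 17 that fell. With median-ratio scaling, which moves the median of all genes to -0.05, 5 members rose and 46 fell, against 1297 and 1307 of all genes. The count of 13 was 8, 6 and 8 without 60 min replicate 1, 2 or 3 and 7 without 7.5 min replicate 2. The count of 23 was 11 without 60 min replicate 1 and 14 without 7.5 min replicate 3.

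Among the members that rose, ZFTA, a zinc finger protein gene by the later annotation, had 18.2, 6.87 and 13.7 TPM at 60 min, against 0.890, 1.67 and 1.3 TPM at 7.5 min. Its log2 change was 2.53 ± 0.64 (SE, adjusted p = 0.0117). EIF3J-DT, which runs divergently from the gene of a translation initiation factor subunit, had 14.9, 23.2 and 7.52 TPM at 60 min, against 6.17, 1.79 and 1.77 TPM at 7.5 min. The groups are close at their edges, and its log2 change was 1.96 ± 0.54 (SE, adjusted p = 0.0173). LINC01089 had 32.9, 27.7 and 22.8 TPM at 60 min, against 7.37, 10.4 and 3.94 TPM at 7.5 min, a log2 change of 1.87 ± 0.36 (SE, adjusted p = 0.00178). It shares 38.3% of its stretches of 50 bases with transcripts of other genes, most with RHOF, which limits how far reads can be assigned to it. LINC02593, a gene with 1 exon, also rose, with means of 11.4 TPM at 7.5 min, 17.4 TPM at 15 min, 28.1 TPM at 30 min and 29.6 TPM at 60 min. LINC00472 averaged 18.9 ± 2.91 TPM at 60 min, against 4.91 ± 3.09 TPM at 7.5 min, and LINC00863 12.5 ± 2.25 TPM at 60 min, against 4.61 ± 3.34 TPM at 7.5 min (mean ± SD of 3 libraries each). Their adjusted p was 0.0331 each, and both no longer passed under median-ratio scaling and without any 1 of the 60 min replicates. ENSG00000267350 averaged 49.8 ± 2.54 TPM at 60 min, against 21.3 ± 3.8 TPM at 7.5 min, and ENSG00000261088 23.5 ± 6.03 TPM at 60 min, against 9.06 ± 2.31 TPM at 7.5 min (mean ± SD of 3 libraries each). RMRP rose with a log2 change of 1.03 ± 0.24 (SE, adjusted p = 0.00683).

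Among the members that fell, AC093788.1 had the largest log2 change of those that passed. AL391987.3 changed by -3.36 and did not pass (adjusted p = 0.0606), and was named after its values were seen. AC093788.1 had 3.26, 4.84 and 8.08 TPM at 60 min, against 31.2, 31.7 and 26.2 TPM at 7.5 min, a log2 change of -2.33 ± 0.30 (SE, adjusted p = 0.000108). LINC02226 had 24.3, 62.4 and 74.2 TPM at 60 min, against 130, 244 and 306 TPM at 7.5 min, and replicate 1 was the lowest in both groups. Its log2 change was -2.12 ± 0.51 (SE, adjusted p = 0.00821), with means of 227, 176, 108, 63.7 and 53.6 TPM in order of labelling time. ENSG00000271840 averaged 7.59 ± 5.57 TPM at 60 min, against 35.6 ± 4.07 TPM at 7.5 min, and LINC02933 2.49 ± 1.93 TPM at 60 min, against 14.1 ± 5.40 TPM at 7.5 min (mean ± SD of 3 libraries each). AC011978.2, AC090229.1, AL132656.2 and AC092127.1 fell by 1.97, 1.95, 1.86 and 1.70 on the log2 scale, each to a mean under 7 TPM at 60 min. MIR181A1HG, the host gene of a miR-181 cluster, averaged 5.21 ± 1.68 TPM at 60 min, against 18.2 ± 3.59 TPM at 7.5 min (mean ± SD of 3 libraries each, log2 change -1.65, adjusted p = 0.0117). It was the only 1 of the 6 microRNA host genes that passed the test. The other 5 had log2 changes from -0.88 for MIR99AHG to 0.40 for MIR4458HG.

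By group, 2 of the 32 divergent transcripts rose (EIF3J-DT and LINC00863) and 0 fell, beside 15.8% and 4.21% of all genes. Of the 32, 21 had a log2 change above 0, beside 10366 of all 16739 genes. Of the 36 genes grouped by LINC symbol 3 rose and 5 fell. Of the 15 transcribed pseudogenes 1 rose (CROCCP2) and 1 fell (RABGEF1P1), and of the 98 other members 0 rose and 12 fell. Those of the X inactivation centre did not pass the test. JPX, an activator of XIST in mouse studies, averaged 77.1 ± 35.5 TPM at 60 min, against 161 ± 51.4 TPM at 7.5 min, and FTX 43.7 ± 24.1 TPM at 60 min, against 87.5 ± 27.3 TPM at 7.5 min (mean ± SD of 3 libraries each). Other lincRNAs with described roles that did not pass were FIRRE, CYTOR, CRNDE, EPB41L4A-AS1, HCG11, LINC00667, LINC01003 and MIR4458HG, with log2 changes from -1.0 for CYTOR to 1.04 for LINC01003.

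The counts of members called higher and lower differed between the times. Against 7.5 min, 0 members were called by limma at 15 min (12 at an unadjusted p under 0.05), and 8 of all 16739 genes (0.0418% higher and 0.00597% lower). At 30 min 7 members rose and 2 fell, beside 5.7% and 2.84% of all genes, and at 45 min 11 rose and 14 fell, beside 12.3% and 4.77%. At an unadjusted p under 0.05, 34 were higher and 11 lower at 30 min, 20 and 38 at 45 min, and 30 and 44 at 60 min. Unadjusted counts over all genes are not given here, so a shift shared by all genes cannot be told apart. Over the 5 labelling times together, limma's F test called 25 members, 9.26% of them, and 16.2% of all genes. That count was 13 without 60 min replicate 1, 16 without 7.5 min replicate 2 and 14 without 7.5 min replicate 3. The highest mean of the 5 times lay at 60 min for 14.8% of members and 40.4% of protein-coding genes, and at 30 min for 27.4% of members and 9.32% of protein-coding genes. In labelled 45 min replicate 2 only 251 of the 270 members were above 0, against 266 to 270 in the other labelled libraries. Without it the F test called 35 members.

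**Figure D2:**
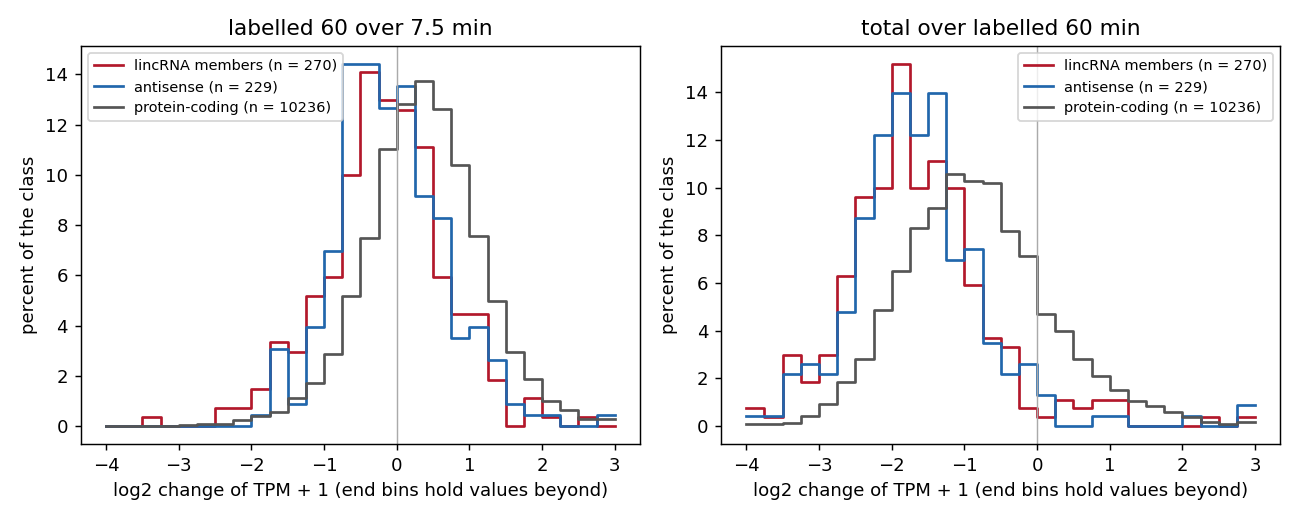
Distribution of log2 changes of TPM + 1 (x axis) as percent of each class (y axis) for members, antisense RNAs and protein-coding genes, in labelled 60 over 7.5 min (left) and total over labelled 60 min (right). The medians of members are -0.18 and -1.74, those of protein-coding genes 0.37 and -0.90.

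Factors of nuclear RNA surveillance and 3′ end formation, which process or remove many such transcripts, were followed in the same comparison. Of 37 tested 10 rose and 1 fell, beside 15.8% and 4.21% of all genes. Their median log2 change was 0.43, beside 0.24 over all genes and 0.37 over protein-coding genes. TENT4B, a poly(A) polymerase that tags nuclear RNA, averaged 56.9 ± 5.36 TPM at 60 min, against 12.6 ± 2.56 TPM at 7.5 min, and RBM7, a subunit of the nuclear exosome targeting complex, 39.6 ± 1.21 TPM at 60 min, against 10.1 ± 3.58 TPM at 7.5 min (mean ± SD of 3 libraries each). DIS3, an exosome nuclease, also rose (log2 change 1.24), and EXOSC5, a subunit of the exosome ring, fell by 1.04 on the log2 scale.

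Splicing of the 101 members with several exons was followed by the unspliced share, in which primary TPM is divided by the sum of primary and mature TPM of the gene and given in percent. The share was lower at longer labelling times and stood above that of coding genes at each time. The median unspliced share over members was 46.2% ± 3.34, 41.0% ± 5.38, 38.1% ± 1.69, 29.9% ± 6.25 and 25.3% ± 5.43 at 7.5, 15, 30, 45 and 60 min and 9.27% ± 1.61 in total RNA (mean ± SD of 3 libraries each). Over 9947 coding genes with several exons it was 37.7% ± 0.477 at 7.5 min, 13.6% ± 3.07 at 60 min and 2.25% ± 0.579 in total RNA (mean ± SD of 3 libraries each). At 60 min members had 19.1 to 29.5% and coding genes 10.2 to 16.1% in the 3 libraries, and the ranges did not overlap. Antisense RNAs had 29.01% ± 4.798 at 60 min (mean ± SD of 3 libraries).

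**Figure D3:**
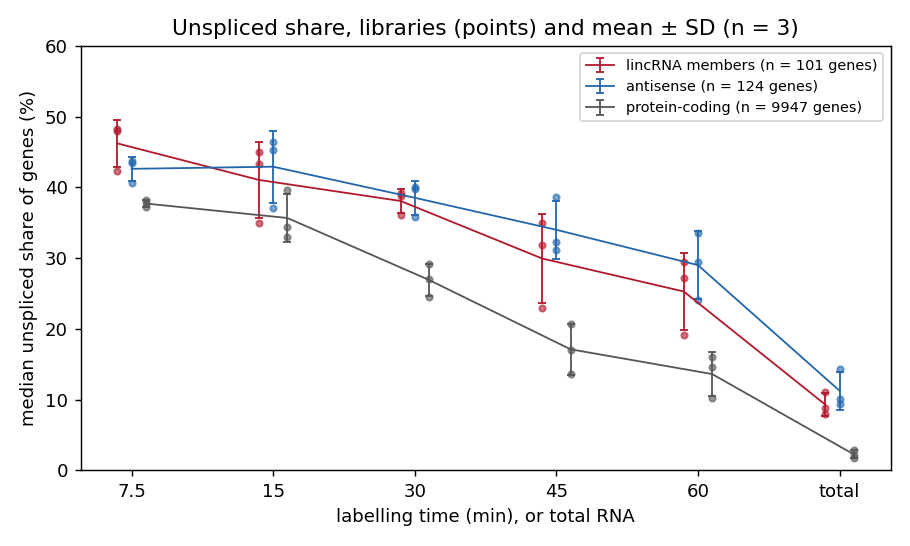
Median unspliced share over genes in percent (y axis) for members, antisense RNAs and protein-coding genes with several exons, against labelling time in min and in total RNA (x axis). Points are libraries and bars the SD of 3. The members lie at 46.2% at 7.5 min and 25.3% at 60 min, above coding genes at each time.

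In the test of the primary to mature ratio at 60 against 7.5 min, 41 of the 101 members fell and 0 rose, beside 62.8% and 1.09% of all 13879 genes. Of the members 46 had an unadjusted p under 0.05 in the lower direction and 0 in the higher. The median log2 change of the ratio was -1.23 for members and -1.81 for all genes. Under median-ratio scaling, which takes the all-gene change to -0.05, 17 members rose and 0 fell, so the direction here depends on the scaling. The count of 41 was 27 without 60 min replicate 1. The largest falls were in AC006213.2 (-4.48 ± 1.73, SE, adjusted p = 0.0367), ZFTA (-3.47 ± 1.11, SE, adjusted p = 0.0151), LINC00472, LINC00863 and EIF3J-DT. The last 3 fell by 2.82, 2.80 and 2.70 on the log2 scale. None of the 5 passed as lower under median-ratio scaling. The mature level of AC006213.2 was listed at 0 in 7.5 min replicate 3, so its ratio there is set by the pseudocount. Without that library its change was -2.61 and did not pass (adjusted p = 0.175). EPB41L4A-AS1, a small nucleolar RNA host, had an unspliced share of 33.0, 34.8 and 51.5% at 60 min, against 83.8, 78.2 and 77.5% at 7.5 min. That of XIST was 18.03, 13.3 and 14.1% at 60 min, against 35.5, 25.7 and 31.7% at 7.5 min. LINC02226 had 4.25, 4.46 and 4.43% at 60 min and 3.63, 4.00 and 3.79% at 7.5 min. Its ratio had a log2 change of 0.26 ± 0.23 (SE, adjusted p = 0.347).

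Junction reads gave a second view of splicing for 48 introns in 17 members. Median excised shares, the authors' means over replicates, were 44.6%, 48.7%, 58.5%, 64.4% and 72.8% at 7.5, 15, 30, 45 and 60 min, beside 54.3%, 57.9%, 69.8%, 80.7% and 84.5% for 21459 introns of protein-coding genes. The excised share was higher at 60 than at 7.5 min in 44 of the 48, beside 20286 of the 21459 coding introns. The authors' classes put 20 of the 48 introns (41.7%) in the slow class and 17.4% of the coding introns. Without the pseudogenes, 32 introns of 11 members had a median of 69.4% at 60 min. XIST held 11 of the introns, and several of them share a splice site. The introns at chrX:73040865-73041905 and chrX:73042052-73045949 (hg19, − strand) were excised in 12.4% and 8.69% at 60 min, against 13.1% and 8.90% at 7.5 min. The intron at chrX:73049067-73050900 reached 85.9% at 60 min, against 53.1% at 7.5 min. The single intron of EPB41L4A-AS1 (chr5:111497473-111497847, hg19, + strand, 375 bases) reached 37.2% at 60 min, against 13.2% at 7.5 min. In FIRRE, which has a role in nuclear organisation, the 3 introns ended between 43.6 and 74.3% at 60 min. The XIST, EPB41L4A-AS1 and FIRRE introns were chosen after their values were seen. They lie in genes of the list of described lincRNAs.

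Total RNA was compared with RNA labelled for 60 min, to set steady levels beside those of new RNA. The labelled levels chose the members, so their lower level in total RNA shares values with that choice and is a description. It was lower for 203 members (75.2%) and higher for 3 (1.11%), beside 40.1% and 5.24% of all 16580 genes tested and 49.0% and 5.55% of protein-coding genes of the same minimum. In 198 of the 203 the groups did not overlap, again without a share over all called genes to set beside it. The median log2 change was -1.74 for members, -0.84 for all genes, -0.90 for protein-coding and -1.68 for antisense genes. Median-ratio scaling takes the all-gene median to -0.06, and then 125 members fell and 10 rose, against 2516 and 2857 of all genes. Members with 1 exon had a median of -1.93 and those with several exons -1.27. In such bulk RNA, fewer cells with a transcript and less of it per cell cannot be told apart. Of the 32 divergent transcripts 26 were lower, of the 15 pseudogenes 12 and of the 36 genes grouped by LINC symbol 24.

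The largest fall among members whose groups did not overlap was that of LINC02226, which was listed at 0 in the poly(A) library, at 0.590 TPM in the RNase H and at 0.0600 TPM in the Ribo-Zero library, against 24.3 to 74.2 TPM at 60 min. AL645608.7 had 9.20, 3.32 and 2.96 TPM in the poly(A), RNase H and Ribo-Zero libraries, against 55.2 to 113 TPM at 60 min (log2 change -3.81 ± 0.47, SE, adjusted p = 6.39e-06). AC007952.4, which holds a U3 copy, ENSG00000272216, AC124944.3, LINC00115, AC078846.1 and AC120024.1 changed by -3.65 to -3.37. FTX averaged 4.98 ± 1.64 TPM in total RNA and 43.7 ± 24.1 TPM at 60 min, and JPX 46.6 ± 14.1 TPM in total RNA and 77.1 ± 35.5 TPM at 60 min (mean ± SD of 3 libraries each). FTX fell (log2 change -2.74, adjusted p = 0.00085), and JPX did not pass the test (-0.63, adjusted p = 0.274).

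Of the 3 that were higher in total RNA, BCYRN1 had 92.8, 47.9 and 35.5 TPM in the poly(A), RNase H and Ribo-Zero libraries, against 2.34, 5.18 and 10.2 TPM at 60 min. Its log2 change was 3.17 ± 0.52 (SE, adjusted p = 9.87e-05). SMIM26, a small membrane protein by the later annotation, had 104, 58.1 and 75.3 TPM in the same libraries, against 47.7, 38.1 and 43.6 TPM at 60 min (log2 change 0.83 ± 0.29, SE, adjusted p = 0.0252). LINC00910, named for completeness after its values were seen, had 65.3, 185 and 110 TPM, against 20.04, 7.0 and 68.1 TPM at 60 min, and its groups overlapped. Its transcripts share 143 stretches of 50 bases with RNU2-4P, a copy of the U2 spliceosomal RNA. The count of 3 was 1 without 60 min replicate 2 or total replicate 3 (Ribo-Zero) and 5 without total replicate 1 (poly(A)).

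The 3 total libraries were then set side by side, by values only. Of 112 members with at least 5 TPM in a total library, 4 were lower by 1 log2 unit or more in the poly(A) library than in both others, 3.57%, beside 0.605% of 11078 genes. They were SNORD3A, TERC, RMRP and AL356488.2. Of the 6 structural RNAs among the 112 members, 3 met the rule. The U3 genes SNORD3B-1 and SNORD3B-2, which share sequence with SNORD3A, did not. SNORD3B-2 had 39.12 TPM in the poly(A) library, against 31.35 TPM with RNase H and 83.36 TPM with Ribo-Zero. SNORD3A had 93.9 TPM in the poly(A) library, against 492 TPM with RNase H and 2452 TPM with Ribo-Zero. RMRP had 6389 TPM in the poly(A) library, against 15214 and 31837 TPM in the depleted ones, and TERC had 36.8 TPM against 104 and 218 TPM. AL356488.2, the member with SCARNA2 sequence, had 84.7 TPM against 190 and 701 TPM. Another 4 were higher in the poly(A) library by the same rule, 3.57% beside 3.76% of all genes, and were ZNF667-AS1, LCMT1-AS1, ENSG00000269751 and AL645608.7. The median member lay 0.37 log2 units above RNase H and 0.83 above Ribo-Zero in the poly(A) library, near the 0.51 and 0.79 of protein-coding genes.

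**Figure D4:**
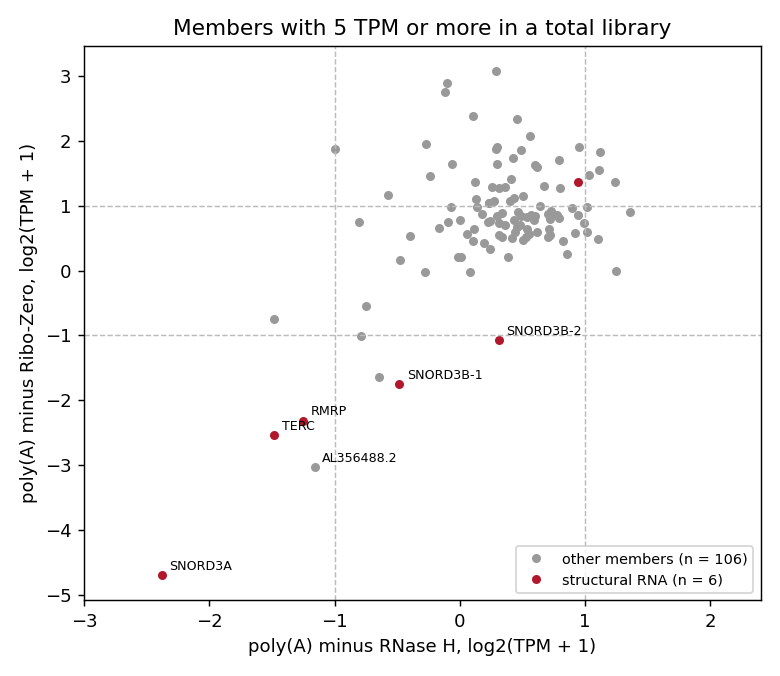
Difference in log2(TPM + 1) of the poly(A) library from the RNase H library (x axis) and from the Ribo-Zero library (y axis) for 112 members with at least 5 TPM in a total library, dashed lines at 1 unit. SNORD3A, TERC, RMRP and AL356488.2 lie below -1 on both axes.

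Copies per cell, which the authors derived from spike-in RNA, were low for most. Over 268 members with a value the median of the authors' mean was 0.548 copies (quartiles 0.261 and 1.34), and 178 (66.4%) were under 1 copy. Also under 1 copy were 162 of 227 antisense RNAs, 1390 of 10233 protein-coding genes and 4826 of all 14196 genes with a value. In all, 8 reached 10 copies or more: RMRP with 1623, XIST with 189.7, SNORD3A with 116, AL356488.2 with 45.3, LINC00910 with 22.3, TERC with 18.8, SMIM26 with 15.6 and BCYRN1 with 10.99. The methods differ widely, and XIST had 121 copies by the poly(A), 511 by the RNase H and 116 by the Ribo-Zero library.

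The authors' rate scores, centred on their table and derived in part from the same TPM, describe most members as quickly degraded. The degradation score, on a log10 scale, had a median of 0.30 over members, 0.32 over antisense RNAs, 0.53 over 490 lincRNAs below the minimum level and -0.12 over protein-coding genes. In the top 25% of all 15120 genes were 60.7% of members and 13.2% of protein-coding genes, and in the bottom 25% 5.19% and 30.4%. The highest scores were those of LINC02226 (2.23), FLJ12825 (1.34), AC023794.5 (1.19) and AL391987.3 (1.17). None of these 4 exceeded 1.56 TPM in a total library, so their total levels are near the floor and the size of these scores is uncertain. The lowest were those of BCYRN1 (-1.28), RMRP (-1.04), TERC (-0.94) and AL356488.2 (-0.87). Of the 8 structural members 4 were in the bottom 25%, and of the 32 divergent transcripts 2. The synthesis score rests on the labelled levels that chose the members, so its median and low end carry that choice. RMRP (2.43) and XIST (2.34) were the highest members. For members with several exons 42.6% were in the lowest 25% of the processing score, against 54.0% of antisense and 8.29% of protein-coding genes. The share of members depended on the level. It was 58.6% of 70 members, against 16.2% of protein-coding genes, at 5 to 20 TPM, and 6.45% of 31 members, against 3.77% of protein-coding genes, at 20 TPM and over. LINC02226 had the highest and NUDT19-DT the lowest processing score.

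The cytoplasmic to nuclear score, which the authors took from fraction libraries of another study, placed most members towards the nucleus. Its median was -0.45 over members and 0.05 over protein-coding genes, and 64.4% of members and 19.01% of protein-coding genes were in the bottom 25%. Antisense RNAs had a median of -0.34, with 55.0% in the bottom 25%. For members with 1 exon the share was 71.6%, for those with several 52.5% and for the 32 divergent transcripts 37.5%. XIST was at -1.66, in the lowest 1.03% of genes. The lowest members were AC006504.1 (-3.16), ENSG00000272216 (-2.19), ZNF667-AS1 (-2.09) and ZNF718 (-1.98), and the highest were AC007952.4 (1.14), AL392172.1 (0.65), AC093323.1 (0.60) and NUDT19-DT (0.58). AC006504.1 and ENSG00000272216 did not exceed 2.34 TPM in a total library of this series, so the size of their scores is uncertain. LincRNAs below the minimum level had a median of -0.14.

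The polysomal to cytosolic score separated the groups less. Its median was -0.20 over members and -0.07 over protein-coding genes, and 34.1% and 26.5% were in the bottom 25%. Its highest members were NCBP2AS2 (0.59), MTLN (0.59) and SMIM26 (0.57), which the later annotation calls protein coding, and CYTOR (0.52). MTLN encodes mitoregulin, a mitochondrial microprotein. The lowest were AC018638.7 (-3.65), ENSG00000267167 (-3.64), LINC02933 (-3.15) and AC100827.4 (-2.86). In this series none of these 4 exceeded 2.14 TPM in a total library, so the size of their scores is uncertain. Translation, from ribosome profiling, was at the lowest value of the table for 80.7% of members, 74.2% of antisense RNAs and 4.79% of protein-coding genes. Its highest members were SMIM26 (2.11), JPX (1.98), ENSG00000233137 (1.47) and NCBP2AS2 (1.22). The authors' k-means sorting on 6 measures put 201 members (74.4%) in cluster c6, which held 5.33% of protein-coding and 68.1% of antisense genes.

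**Figure D5:**
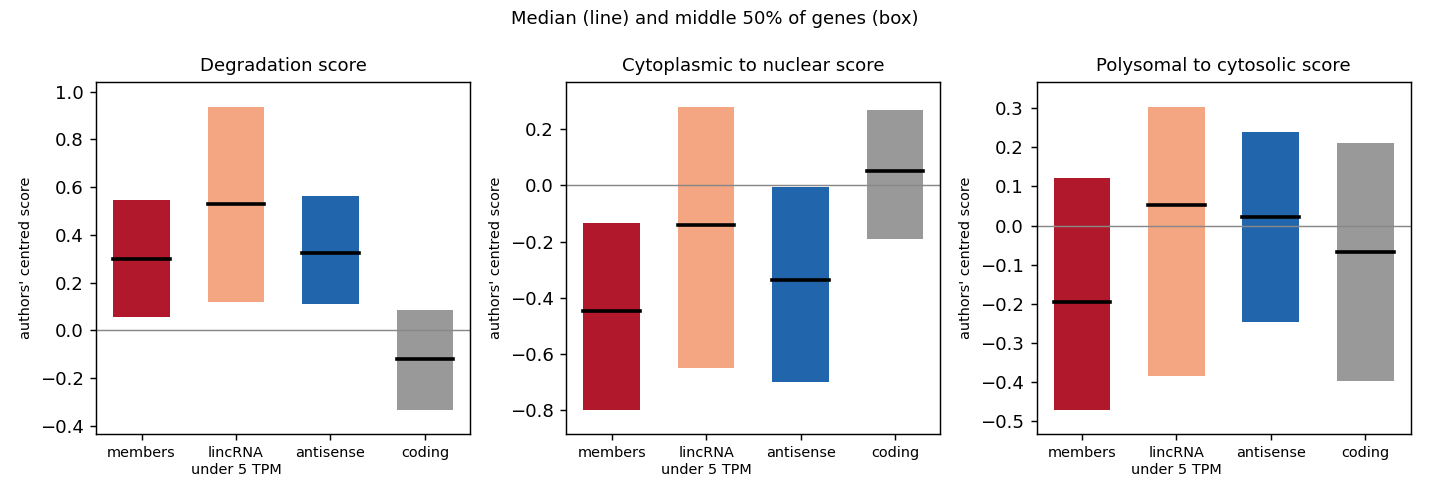
The authors' centred scores (y axis) for degradation, for the nuclear and cytoplasmic balance and for the polysomal balance, as median (line) and middle 50% of genes (box) of members, lincRNAs under 5 TPM, antisense RNAs and protein-coding genes. The degradation median is 0.30 for members and -0.12 for protein-coding genes.

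Divergent transcripts could be set beside the coding genes they are named after. In 24 of 29 such pairs the degradation score was higher in the divergent transcript, and its median was 0.29 for the transcripts and -0.07 for the partners. The cytoplasmic to nuclear score was lower in the transcript in 21 pairs, and the polysomal score in 6. The log2 change of total over labelled 60 min was lower in the transcript in 22 pairs, with medians of -1.92 and -1.10. The transcripts were selected on their labelled levels, while the partners were taken by name. Labelled levels enter this change and, in part, the degradation score, so both counts are a description. BTF3-DT had a degradation score of 0.25, against -0.93 for BTF3, a subunit of the nascent polypeptide complex. MRPL20-DT had 0.61, against -0.50 for MRPL20, a mitochondrial ribosomal protein. EIF3J-DT, which rose with labelling time, had -0.36, against -0.34 for EIF3J. NUDT19-DT lay the other way, with -0.27 against 0.24 for NUDT19. These pairs were chosen after their values were seen, and the authors' scores have no replicates.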

How the data were processed

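Labelled (15) and total (3) libraries of HEK293 RNA were used. The authors deposited TPM of mature and primary transcripts. The tools RSEM 1.2.11 and Bowtie 1.0.1 and the build hg19 are named in the submitters' processing notes, and per the file headers the annotation was GENCODE with an extra isoform spanning each locus. For genes without introns the primary and mature TPM are summed, per the file headers, so all their RNA counts as mature. The authors deposited excised shares of introns as a fraction, averaged over replicates for junctions with more than 5 reads, splice site scores, intron length on a log10 scale, copies per cell from spike-in RNA, and centred rate and localisation scores. Synthesis, degradation and copies are on a log10 scale, and the scale of the other scores is not certain from the sources used here, so they were read for order and sign. Processing scores of genes without introns are imputed, per the file headers, and were not described. They did enter the cut for the lowest 25% of that score, which held 26.0% of the 14206 genes with several exons.

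TPM were tested as log2(TPM + 1) with limma 3.58.1 in R 4.3.3 (empirical Bayes with a trend, labelling time or group as factor), over genes with a mean of at least 1 TPM, and Benjamini-Hochberg adjustment over all genes at 0.05. The ratio used a pseudocount of 0.1 and a mean primary level of at least 0.1 TPM. The test was run on simulated data first. Symbols and types come from GENCODE release 29 and RefSeq, and no coordinates were moved between builds. Shared stretches of 50 bases leave out entries of the same symbol.

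Members and lists were chosen with earlier results of these data known. Members named are the 10 highest, the largest changes in each direction among called members without overlap, the extremes of each score, genes with a described role, and genes called coding later. Alternatives were scaling, pseudocount, filter, replicate block, groups fitted alone, other minimum levels, and each library left out. Leaving structural and later coding members out of the scores was added after seeing the data. A marker gene and a transcript sequence are not reported here.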

Additional observations from a re-analysis of the deposited data

How the results depend on the processing

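Direction held in every alternative tried for each member named in a contrast: 324 values stayed past the threshold and 59 no longer passed it. Counts moved more. In 60 against 7.5 min, 13 members rose, and 5 did so under median-ratio scaling, 7 after quantile normalization, 7 with TPM rescaled over mature transcripts and 8 without the filter. The 23 that fell became 46 under the first and 42 under the second of these scalings. With a library left out 6 to 17 rose and 11 to 19 fell. The F test over 5 times called 25 members, 15 without the filter and 13 to 35 with a library left out. In total against labelled 60 min, 3 members rose and 203 fell. These were 10 and 125 under median-ratio scaling, 8 and 102 after quantile normalization, and 1 to 5 and 171 to 202 with a library left out. For the ratio, 0 members rose and 41 fell, against 17 and 0 under median-ratio scaling, 16 and 0 after quantile normalization, 1 higher with the pseudocount of 1, and 0 to 1 and 27 to 39 with a library left out. Both scalings set most genes at no change, so they count change relative to other genes. The cause of the other shifts was not tested. Same-lettered libraries at 60 and 7.5 min correlated at 0.273, 0.0835 and 0.0893 in their deviations, and from -0.0129 to 0.341 over all pairs of times. Libraries of different letters were not compared, so these values cannot tell whether a letter marks a shared source. The labels do not say what a letter shares, and the main test did not take letters as pairs. With the replicate block 25 members rose and 42 fell in 60 against 7.5 min, and the F test called 57. The share of members in the top 25% of degradation was 60.7%, 62.0% at a minimum of 2 TPM and 59.2% at 10 TPM. In the bottom 25% of the cytoplasmic to nuclear score the shares were 64.4%, 60.6% and 63.0%. For the polysomal score they were 34.1%, 34.3% and 34.8%. Without structural and later coding members the 3 scores had 61.8%, 65.4% and 34.3%. These sets share most of their genes, so similar shares are no independent support. The share in the bottom 25% of the processing score was 42.6%, 58.4% at 2 TPM and 29.9% at 10 TPM. The depth is unknown, which limits low levels, whose precision is known from the spread of 3 libraries alone.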
